A study of Mus musculus with 2 samples.

Results

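The HOX cluster genes were taken as every gene of the deposited tables named Hox followed by a cluster letter a, b, c or d and a number, which gave 39 of 52636 genes, the same 39 in each table. They lie in 4 clusters: 11 Hoxa genes on chromosome 6, 10 Hoxb genes on chromosome 11, 9 Hoxc genes on chromosome 15 and 9 Hoxd genes on chromosome 2. The series is an RNA-seq study with 1 library from mice in which the microRNA gene Mir29a was knocked out (labelled KO) and 1 library from wild-type mice (labelled WT). All mice were C57BL/6 and 8 weeks old, and each library was made from the combined retinas of 3 mice, per the labels. The sources used here do not give whether miR-29a was deleted in all cells or in some. The libraries are called KO and WT library here by these labels. With 1 library per group there was no replicate and no test, so every difference below is between 2 libraries and its interval covers counting error only.

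HOX genes encode homeodomain transcription factors that give cells along the head-to-tail axis and along the limb their regional identity. Genes of a cluster are numbered by paralogue group, and low numbers are switched on earlier and reach further towards the head than high numbers. The forebrain, the eye that grows out of it, and the neural crest mesenchyme of the upper face form without HOX expression, whereas fibroblasts of the trunk and limbs keep a HOX pattern that reflects where in the body they come from. The microRNAs of the clusters, miR-10 and miR-196, are transcribed among the HOX genes.

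The HOX genes were close to absent from both libraries, and apart from Hoxd8 no HOX gene had more than 3 reads in either. A positional code could not be read from these counts. Of the 39 genes, 34 had 0 counts in both libraries (87.2%), against 28.5% of the 21819 protein-coding genes of the tables. Only Hoxd8 reached 10 counts, with 10 counts in the KO library and 13 in the WT library. That is 2.56% of the HOX genes in each library, where 59.4% of protein-coding genes reached 10 counts in the KO library and 59.5% in the WT library. Of all 52636 genes, 27.6% did so in the KO library and 27.9% in the WT library. Summed over all 39 genes, the KO library held 18 HOX reads among 24876925 counts and the WT library 17 among 26805902.

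The libraries as a whole set the limits of this reading. Levels are given in CPM, the count scaled to a common library total. The limit that a count of 0 sets is 3 counts, or 0.121 CPM in the KO library and 0.112 CPM in the WT library. A transcript at 1 CPM would give on average 24.9 counts in the KO library and 26.8 in the WT library. These limits cover counting error only and take each read as a separate count. No molecular identifiers marked which reads came from the same molecule, so counting error may be larger than these limits allow. Mir29a itself had 0 counts in both libraries, which checks neither label, since so short a precursor is seldom counted. Retinal markers were nearly absent, against the labelled tissue. Of 10 retinal markers 2 reached 10 counts in each library, and their summed level was 2.77 CPM in the KO library and 1.68 CPM in the WT library, with Grm6 and Pou4f2 at 0 in both. The 7 fibroblast markers summed to 8638 CPM in the KO library and 7291 CPM in the WT library. Macrophage markers differed between the libraries, with 4 of 4 higher by 2-fold or more in the KO library. Their summed level was 328 CPM in the KO library, against 84.3 CPM in the WT library. By the same measure 4 of 4 endothelial markers were higher in the KO library. They summed to 32.0 CPM in the KO library and 8.95 CPM in the WT library. Of the 12382 genes with enough counts to be compared, 4.47% were higher and 2.82% lower by 2-fold or more in the KO library. Smooth muscle markers summed to 133 CPM in the KO library and 83.4 CPM in the WT library, mostly Acta2, and epithelial markers to 4.70 CPM in the KO library and 5.15 CPM in the WT library. Xist, expressed from the inactive X chromosome of female cells, had 0 counts in the KO library and 4288 in the WT library. The part of these differences in any value below was not tested. In such bulk samples, fewer cells of a type and less RNA per cell cannot be told apart.

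**Figure D1:**
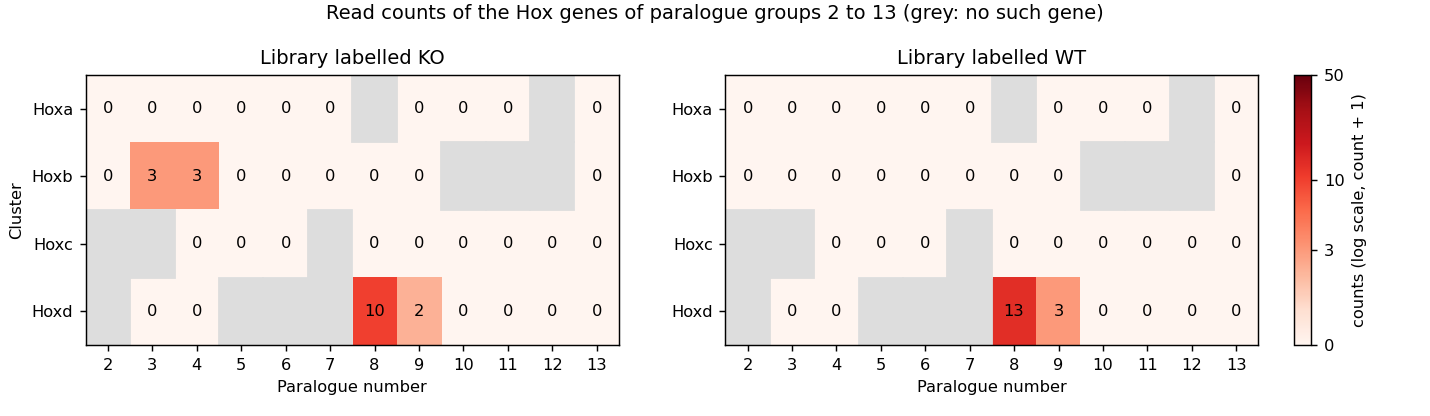
Read count of each HOX gene by cluster (vertical axis) and paralogue number from 2 to 13 (horizontal axis), in the KO library (left) and the WT library (right); colour runs with the count on a log scale of count + 1, and grey cells are positions with no gene in the mouse. Most cells hold 0, and the highest counts are those of Hoxd8, 10 in the KO library and 13 in the WT library.

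By cluster, Hoxd held most of the few reads. The 9 Hoxd genes summed to 12 counts in the KO library (0.482 CPM, exact Poisson interval 0.249 to 0.843) and 16 counts in the WT library (0.597 CPM, 0.341 to 0.969). The ratio of KO over WT was 0.808 with a 95% exact counting interval of 0.349 to 1.82, which includes 1. The 10 Hoxb genes had 6 counts in the KO library and 0 in the WT library. The counting interval of that ratio began at 1.27 and had no upper end, so it lay above 1 on 6 reads. Of these 6 reads 3 were assigned to Hoxb3, which shares 52.9% of its exonic bases with another gene. The 9 Hoxc genes had 0 counts in both libraries. All 39 genes summed to 0.724 CPM in the KO library (0.429 to 1.14) and 0.634 CPM in the WT library (0.369 to 1.02), a ratio of 1.14 (0.555 to 2.36).

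By paralogue number, groups 3, 4, 8 and 9 held more than 1 read in a library. The 12 genes numbered 1 to 4, which pattern the hindbrain and neck, held 6 counts in the KO library and 1 in the WT library. The 11 genes numbered 5 to 8, active in the neck and thorax, held 10 in the KO library and 13 in the WT library, all from Hoxd8. The 16 genes numbered 9 to 13, active in the lower trunk, limbs and genital region, held 2 in the KO library and 3 in the WT library, all from Hoxd9. Among the genes at 0 in both libraries were Hoxa5, needed in the lung and neck, Hoxc6 of the thorax, Hoxa9 of the lower trunk and blood, Hoxc10 of the hindlimb and Hoxd13 of the digits. No sum over a paralogue range reached 1 CPM in either library.

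Hoxd8 (chromosome 2, 74704615 to 74707933, GRCm38, plus strand), which acts in the trunk, had 10 counts in the KO library (0.402 CPM, 0.193 to 0.739) and 13 in the WT library (0.485 CPM, 0.258 to 0.829). The ratio of KO over WT was 0.829, with a counting interval (0.325 to 2.05) that includes 1. Per transcript length, on the authors' FPKM scale, which divides by length and library size, Hoxd8 stood at 0.149 in the KO library and 0.187 in the WT library. The median protein-coding gene with 10 or more counts stood at 4.61 FPKM in the KO library and 4.42 FPKM in the WT library. Of 21819 protein-coding genes, 12730 lay above Hoxd8 in FPKM in the KO library and 12488 in the WT library. Hoxd8 alone took 55.6% of the HOX counts of the KO library and 76.5% of those of the WT library. None of its 2744 exonic bases is shared with an exon of another annotated gene. Hoxd8 does lie within the span of the antisense gene Hoxd3os1, and the library kit does not mark strand. Hoxd3os1 had 2 counts in the KO library and 1 in the WT library.

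Hoxd9, the next gene of the cluster, ends 4407 bases before the start of Hoxd8. It had 2 counts in the KO library and 3 in the WT library, with 0.0383 FPKM in the KO library and 0.0554 FPKM in the WT library. Hoxd8 and Hoxd9 were the only HOX genes with a read in both libraries. Their neighbours Hoxd10 and Hoxd3 had 0 counts in both.

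In the Hoxb cluster the reads fell in the KO library. Hoxb4, a gene of the hindbrain and of blood stem cells, had 3 counts in the KO library (0.0478 FPKM) and 0 in the WT library. Hoxb3, which shares its hindbrain domain, likewise had 3 counts in the KO library (0.0289 FPKM) and 0 in the WT library. A gene with 3 counts against 0 has a counting interval of the ratio that begins at 0.445, which includes 1.

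**Figure D2:**
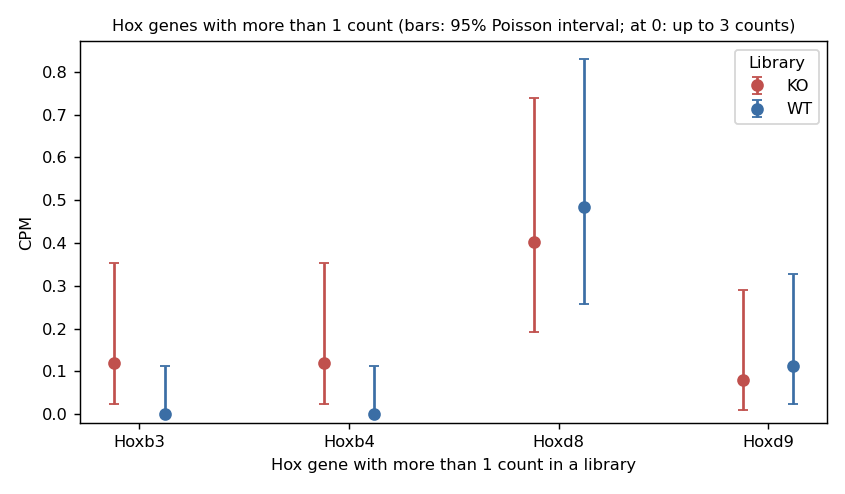
CPM (vertical axis) of the 4 HOX genes with more than 1 read in a library, with the KO library (red) left of the WT library (blue). Bars are 95% exact Poisson intervals, except that at a count of 0 they are drawn up to the shorter limit of 3 counts. The bars of the libraries overlap for all 4 genes, and no point exceeds 0.485 CPM.

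The reference sequences of the start regions of Hoxd8, Hoxd9 and Hoxb4 are printed below. Read positions were not used. Hoxb3 had no entry. RefSeq (GRCm38.p6) windows of 250 bases before to 50 after the start were matched by symbol for 22 of the 39 genes, in 24 windows, among them Hoxd8 (chr2:74704365-74704664, plus strand), Hoxd9 (chr2:74697513-74697812, plus strand) and Hoxb4 (chr11:96318017-96318316, plus strand). Capitals mark the dinucleotide CG, the site of DNA methylation, which is its own reverse complement.
Hoxd8: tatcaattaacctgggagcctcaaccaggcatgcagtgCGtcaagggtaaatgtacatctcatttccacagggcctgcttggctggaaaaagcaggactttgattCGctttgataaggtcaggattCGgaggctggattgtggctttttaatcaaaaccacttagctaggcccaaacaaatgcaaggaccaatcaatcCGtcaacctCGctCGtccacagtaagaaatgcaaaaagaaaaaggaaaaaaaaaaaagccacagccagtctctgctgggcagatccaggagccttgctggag
Hoxd9: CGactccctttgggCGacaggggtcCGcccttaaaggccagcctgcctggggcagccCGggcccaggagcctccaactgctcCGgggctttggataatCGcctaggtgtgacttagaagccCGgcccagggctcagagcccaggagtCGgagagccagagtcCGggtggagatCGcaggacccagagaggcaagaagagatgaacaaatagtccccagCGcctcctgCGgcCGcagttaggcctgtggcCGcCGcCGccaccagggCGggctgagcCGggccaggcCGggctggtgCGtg
Hoxb4: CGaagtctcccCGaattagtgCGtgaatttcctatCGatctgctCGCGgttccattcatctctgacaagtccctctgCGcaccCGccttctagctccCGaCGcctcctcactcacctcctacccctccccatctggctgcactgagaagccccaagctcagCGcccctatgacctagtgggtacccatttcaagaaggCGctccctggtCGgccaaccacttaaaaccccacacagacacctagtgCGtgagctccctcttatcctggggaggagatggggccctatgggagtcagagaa
The window of Hoxd8 holds 6 CG, and 56.4% of all 32851 windows hold as many or more. That of Hoxd9 holds 20 (26.5% of all windows) and that of Hoxb4 14 (36.3%). The HOX windows ranged from 4 to 45 CG with a median of 14.5, and the median of all windows was 7. Hoxa13, a gene of the digits and genital region with 0 counts in both libraries, had the most among them. These letters describe the sequence and carry no measurement of methylation.

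The clusters are dense with antisense and other overlapping transcripts, and reads of overlapping genes cannot be told apart here. The library kit does not mark strand, and the sources used here give no counting rule. In the GENCODE M21 annotation, 23 of the 39 HOX genes share no exonic base with another gene, and 29 share under 10%. Those 29 genes held 15 counts in the KO library and 17 in the WT library, and 25 of them were at 0 in both. The other 10 share from 10.8% to 62.9% of their exonic bases, the most for Hoxd3, and their reads are uncertain. Hoxb3, with 52.9% shared with the antisense gene Hoxb3os, is one of these. Of the overlapping partners, Hoxb3os had 0 counts in both libraries, and so did Gm28230 and Gm28308, genes on the same strand over Hoxd3 and Hoxa3.

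RNAs transcribed within or near the clusters had few reads too. Of 20 listed RNAs 17 had a row in the tables, and 14 of these had 0 counts in both libraries. Most genes of the tables had no count in a given library either: of all 52636 genes, 19545 had a count in the KO library and 19346 in the WT library. The share at 0 in both libraries was 28.5% for protein-coding genes and is not given here for all genes. Hotair, which lies between Hoxc11 and Hoxc12, and Hottip, which lies beyond Hoxa13 and keeps the 5' end of the Hoxa cluster active, were both at 0 in both. Hotairm1, of the Hoxa cluster, had 2 counts in the KO library and 0 in the WT library. Hoxd3os1 had 2 counts in the KO library and 1 in the WT library. Halr1, which lies 41.9 kb outside the Hoxa cluster, had 0 in the KO library and 1 in the WT library. The precursors Mir10a, Mir10b, Mir196a-1, Mir196a-2, Mir196b and Mir615 had 0 counts in both, which says nothing of the mature microRNAs, since precursors are seldom counted by such libraries.

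The mature miR-29a is printed because its gene was deleted in the KO mice, and the miR-10 and miR-196 products because they are encoded among the HOX genes in more than 1 cluster. The sequences are from RefSeq (GRCm38.p6), 5' to 3', with the seed, bases 2 to 8, in capitals.
miR-29a-3p: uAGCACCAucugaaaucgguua
miR-10a-5p: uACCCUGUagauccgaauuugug
miR-10b-5p: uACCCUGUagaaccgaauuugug
miR-196a-5p: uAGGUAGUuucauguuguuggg
miR-196b-5p: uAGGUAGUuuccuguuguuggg
Mir10a lies beside Hoxb4 and Mir10b within the annotated span of Hoxd4. Their products share a seed and differ by 1 substitution, U12A, counted from the 5' end of miR-10a. The products of Mir196a-1 (Hoxb cluster), Mir196a-2 (Hoxc cluster) and Mir196b (Hoxa cluster) also share a seed, and miR-196a and miR-196b differ by A12C, counted from the 5' end of miR-196a. The miR-29a seed differs from both.

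MicroRNAs mostly act through seed matches in 3' UTRs. The letters TGGTGCT, which pair with the miR-29a seed printed above, were searched on the transcript strand of the longest annotated 3' UTR. Of the 39 HOX genes 1 held it (2.56%), against 13.1% of 20927 protein-coding genes with a 3' UTR, with median 3' UTR lengths of 966 bases for HOX genes and 962 bases for all. The gene was Hoxc13, a gene of hair follicles, nails and tail, with the match at base 1166 of a 3' UTR of 1389 bases (chr15:102928580-102928608, plus strand, GRCm38, match in capitals).
Hoxc13: aaaagccaactTGGTGCTgtgggggcccc
Hoxc13 had 0 counts in both libraries, so no difference could be read from it. The match is not followed by an A, and so 0 HOX genes held the 8-base form.

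No HOX gene had the 50 counts in the higher library that were asked of a gene before the libraries were compared. Of all genes, 12382 did. Of these 4.47% were higher and 2.82% lower by 2-fold or more in the KO library (on log2 of CPM + 0.5), with a median log2 ratio of 0.06. The count of HOX genes past 2-fold was therefore 0 of 0, and no median of the HOX genes was available. Of protein-coding genes 46.8% stayed under 50 counts in both libraries.

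Within the spans of the 4 clusters lie 46 other annotated genes of the tables, of which 43 had 0 counts in both libraries. Most of the 46 are noncoding entries. Up to 200 kb beyond the clusters, 33 of 48 genes were at 0 in both. Of all 52636 genes, 19545 had a count in the KO library and 19346 in the WT library, so in each library most had none. The share at 0 in both libraries was 28.5% for protein-coding genes and is not given here for all genes. Directly flanking the cluster ends are 8 other annotated genes, of which 6 had no read in either library (Rps19-ps14, Gm27280, Gm11535, Gm11531, 5730585A16Rik and Evx2), and the others were Calcoco1 and Mtx2. The nearest protein-coding genes with 50 or more counts in both libraries lay 60.7 to 399 kb outside. Beside Hoxd, the mitochondrial import gene Mtx2 had 855 counts in the KO library and 679 in the WT library, and Lnpk, which shapes the endoplasmic reticulum, had 229 in the KO library and 116 in the WT library. Beside Hoxc, the coactivator gene Calcoco1 had 3456 counts in the KO library and 4447 in the WT library, and the DNA repair gene Smug1 had 205 in the KO library and 220 in the WT library. Hoxb lay between Atp5g1, a gene of the mitochondrial ATP synthase with 3006 counts in the KO library and 3589 in the WT library, and the sorting nexin gene Snx11. Hoxa lay between the signalling adaptor gene Skap2, with 641 counts in the KO library and 495 in the WT library, and Hibadh, a gene of valine breakdown with 1455 in the KO library and 1525 in the WT library.

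The stretch between these bounding genes was 534 kb for Hoxa, 692 kb for Hoxb, 431 kb for Hoxc and 246 kb for Hoxd. In the stretch around Hoxc, 21 genes summed to 1 count in the KO library and 0 in the WT library. The stretch around Hoxd held 66 counts in the KO library and 68 in the WT library, of which the processed pseudogene Mrpl23-ps1 took 52 in the KO library and 51 in the WT library. Around Hoxb, Gm11539, a processed pseudogene between Hoxb13 and Hoxb9, had 27 counts in the KO library and 159 in the WT library. Around Hoxa, the processed pseudogene Gm8129 had 79 counts in the KO library and 179 in the WT library. Reads of processed pseudogenes can stem from their parent genes elsewhere, so these 3 are uncertain. The even-skipped genes Evx1 and Evx2, which flank the Hoxa and Hoxd clusters, had 0 counts in both libraries, as did the other 6 genes of the ParaHox and even-skipped list, among them Cdx1, Cdx2 and Cdx4, activators of HOX genes in the embryo.

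Of 94 genes within or up to 200 kb beyond the clusters that are not HOX genes, 12 could be compared between the libraries. Past 2-fold, 1 was higher in the KO library, Lnpk (log2 ratio 1.01), and 1 was lower, Gm11539 (-2.02). The other 10 were neither. Of all genes compared, 4.47% were higher and 2.82% lower by 2-fold in the KO library.

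**Figure D3:**
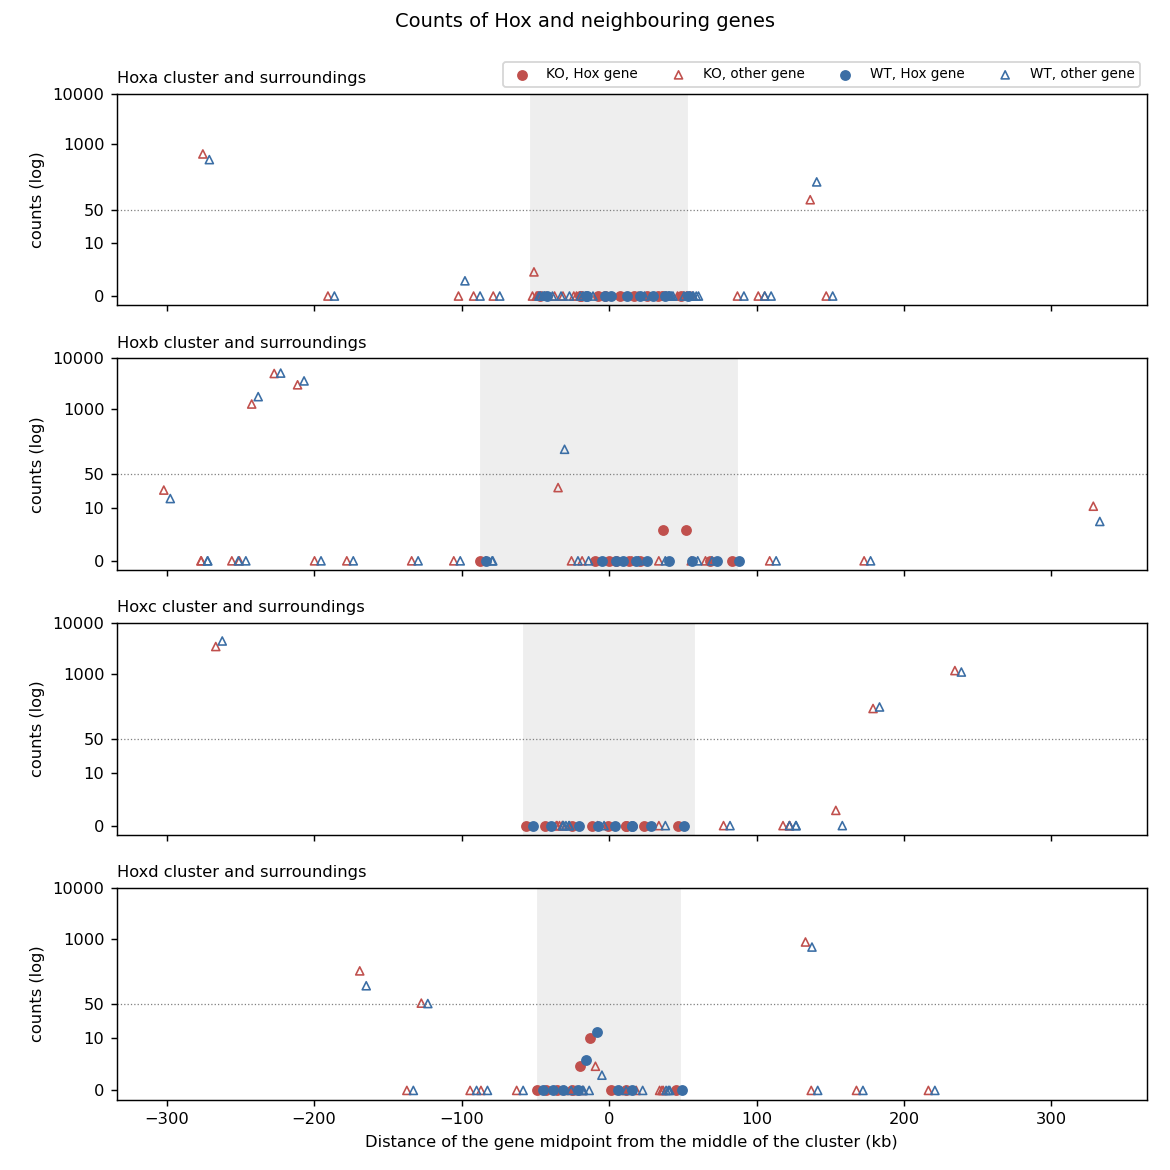
Counts (vertical axis, log scale of count + 1) of 38 HOX genes (filled circles) and other annotated genes (open triangles) in and up to 200 kb beyond each cluster, against the distance of the gene midpoint from the middle of the cluster in kb; KO (red) is drawn slightly left of WT (blue), the shaded band is the cluster and the dotted line marks 50 counts. Inside the bands nearly all points lie at 0, the exception above 50 counts being the pseudogene Gm11539 with 159 counts in the WT library, and genes outside them reach 5026 counts in the KO library and 5121 in the WT library (Ube2z, beside Hoxb).

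The cofactors with which HOX proteins bind DNA were present in both libraries. PBX proteins (the PBC class) and the MEIS and PREP proteins (encoded by Meis and Pknox genes) pair with HOX proteins and with each other. All 9 listed cofactor genes had 10 or more counts in the KO library, and 8 of them did in the WT library. Among protein-coding genes, 59.4% did so in the KO library and 59.5% in the WT library. Pbx2 had 1203 counts in the KO library and 1426 in the WT library, and Meis3 had 776 in the KO library and 1059 in the WT library. Among all genes compared between the libraries, 4.47% were higher and 2.82% lower by 2-fold in the KO library. Of 7 cofactor genes with enough counts, 0 were higher and 1 was lower by 2-fold. The lower one was Meis2, a gene that also acts in eye and facial development, with 69 counts in the KO library and 203 in the WT library, 0.366-fold (0.275 to 0.484). Meis1, under the count minimum, had 34 counts in the KO library and 8 in the WT library, 4.58-fold (2.08 to 11.5). The median log2 ratio of the 7 was 0.03, beside 0.06 for all genes compared.

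Genes that keep HOX clusters off or on were expressed. Among protein-coding genes, 59.4% had 10 or more counts in the KO library and 59.5% in the WT library. Of all genes compared, 4.47% were higher and 2.82% lower by 2-fold in the KO library, shares at which short lists hold few or none. All 21 Polycomb genes, whose complexes hold silent HOX genes in a closed state, had 10 or more counts in both libraries, and 0 of 21 differed by 2-fold on log2 of CPM + 0.5 (median log2 ratio -0.08). Nearest to it was Pcgf6, a subunit of a Polycomb complex, with 133 counts in the KO library and 71 in the WT library, a log2 ratio of 0.89, whose plain ratio of CPM was 2.02-fold. Ezh2, the histone H3 lysine methyltransferase of Polycomb, had 210 counts in the KO library and 196 in the WT library. Suz12, a further subunit of its complex, had 440 in the KO library and 377 in the WT library. Cbx6 and Phc2, of the other Polycomb complex, had the highest counts of the list. Cbx6 had 4293 in the KO library and 5055 in the WT library, and Phc2 had 4315 in the KO library and 5140 in the WT library. The 13 genes of MLL complexes, partners and H3K27 demethylases, which oppose Polycomb, all had 10 or more counts in both, and 0 of 13 differed by 2-fold (median log2 ratio -0.05). Men1, which encodes the MLL partner menin, led with 1925 counts in the KO library and 2650 in the WT library. Kmt2a, the MLL methyltransferase itself, had 1294 counts in the KO library and 1834 in the WT library, and the demethylase gene Kdm6b had 933 in the KO library and 1180 in the WT library. These values are RNA levels and say nothing of chromatin at the clusters.

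Homeobox genes outside the clusters were counted over a wide range in both libraries. This list was drawn up after the HOX values were seen. Of 154 listed genes 152 had a row, of which 56 (36.8%) reached 10 counts in the KO library and 59 (38.8%) in the WT library, below the 59.4% of protein-coding genes in the KO library and 59.5% in the WT library. Of the list, 59 had 0 counts in both. Of the 152 genes 14 had over 1000 counts in both libraries. Prrx1, a gene of limb and face mesenchyme, led with 11730 counts in the KO library (472 CPM) and 10665 in the WT library (398 CPM). Its relative Prrx2 had 5275 counts in the KO library and 7714 in the WT library. Irx1, of the Iroquois family of patterning factors, had 4058 in the KO library and 5486 in the WT library. Alx4, of the facial skeleton, had 1925 in the KO library and 2905 in the WT library. Lmx1b, of the limb and the front of the eye, had 2076 in the KO library and 2628 in the WT library. Of 42 compared, 0 were higher and 3 lower by 2-fold in the KO library, where 4.47% of all genes compared were higher and 2.82% lower. Among the lower were Meox1 (38 counts in KO, 158 in WT) and Gsc (108 in KO, 263 in WT). The list shares 5 genes with the retinal markers.

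**Figure D4:**
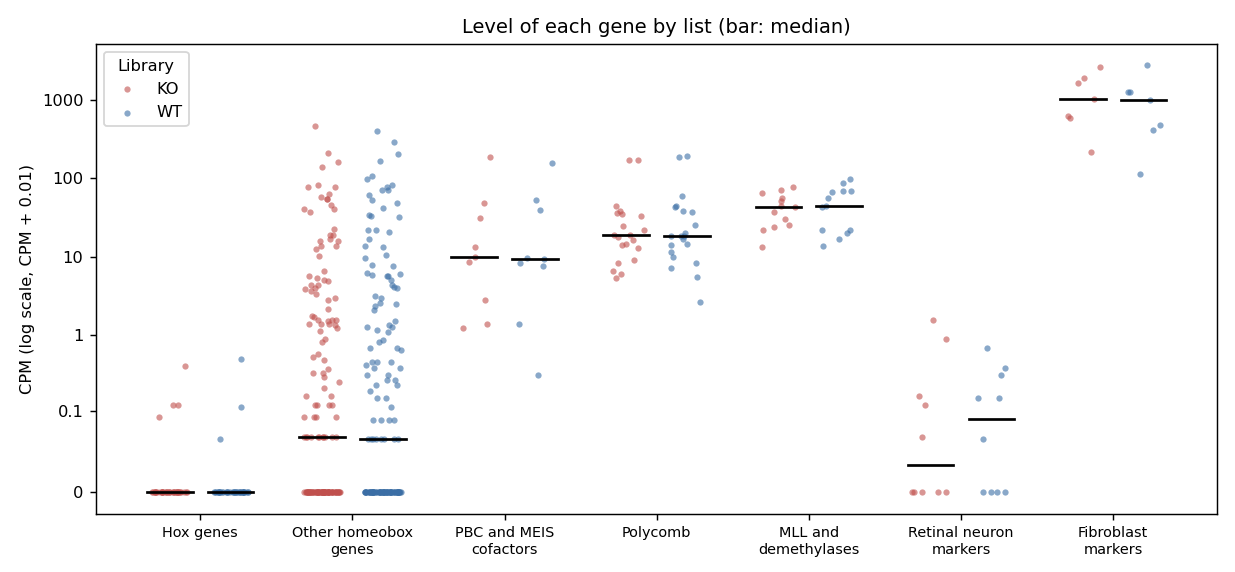
CPM of each gene (vertical axis, log scale of CPM + 0.01) by gene list, with the KO library (red) left of the WT library (blue) and a bar at the median. HOX genes have a median of 0 in both libraries, cofactor genes of 9.97 CPM in the KO library and 9.36 CPM in the WT library, and Polycomb genes of 18.8 CPM in the KO library and 18.3 CPM in the WT library.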

How the data were processed

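1 KO and 1 WT library of RNA-seq, each from retinas of 3 mice, were compared. Per the labels' protocols, a Ribo-Zero kit took out ribosomal RNA and a NEBNext Ultra RNA kit was used for library construction. HISAT2 was the aligner and GRCm38 (mm10) the genome, per the submitters' processing notes. Neither the read counter nor its annotation and strand setting is given in the sources used here. The deposited counts are whole numbers per gene, and the deposited FPKM values are the authors', per the file headers.

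CPM is the count over the library total, and ratios are log2 of CPM + 0.5, KO over WT, for genes whose higher count was 50 or more. A gene was called detected at 10 counts. In 4 genes the count to FPKM ratio changed by over 1% from table to table, and they were left out of ratios. Intervals were 95% exact Poisson for levels and Clopper-Pearson for ratios. At a count of 0 the limit of 3 counts was used for levels. Positions, exons and 3' UTRs came from GENCODE M21, which held 52403 of the 52636 genes and all 39 HOX genes. HOX genes with 10 counts or more were to be named and the rest given in groups. From context lists, genes past 2-fold and those with the highest counts were named, and beside each cluster its bounding genes. Other names were picked with their values in view. The members and lists were chosen with earlier results of these data known. No protein sequences were used here. The values of a few genes, 1 HOX gene among them, are not reported here and not drawn by name. The procedure was tested on simulated counts of genes expected at 50 counts or more. No HOX gene reached that range, so the simulation does not cover their values. Alternatives covered TMM (edgeR) and median-of-ratios scaling, pseudocounts, minimums, fold thresholds, the authors' FPKM and genes with little overlap. Software was edgeR 4.0.16 in R 4.3.3, and Python 3.11.15 with scipy 1.17.1, pandas 2.3.3, numpy 2.4.6 and matplotlib 3.10.9.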

Additional observations from a re-analysis of the deposited data

How the results depend on the processing

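The near absence of HOX reads held under each minimum tried: 1 gene was detected in each library at 4 or 10 counts, on FPKM of 0.1 or more and among genes with under 10% overlap, and 0 in each at 50 counts. The ratios of the Hoxd sum, of all HOX genes and of Hoxd8 stayed within their counting intervals under every scaling, overlap and FPKM setting run. The Hoxb ratio, with 0 counts in the WT library, was not run under these settings. Among Hoxb genes with under 10% overlap only Hoxb4 had reads, 3 in the KO library against 0 in the WT library. Its interval begins at 0.445 and includes 1. A minimum of 50 or 200 counts left no HOX gene to compare, under any scaling or pseudocount. With a minimum of 10 counts Hoxd8 alone could be compared (log2 ratio -0.13), and with none the medians of HOX genes and of all genes were 0.00, most of them being at 0 in both libraries. The 8-base form of the miR-29 match gave 0 HOX genes. Among cofactors, 1 was higher with a minimum of 10 counts, and 0 were lower on log2 of FPKM + 0.5. That lower gene, Meis2, had 0.234 FPKM in the KO library and 0.665 FPKM in the WT library, both near or below the pseudocount. Among genes in and around the clusters, 0 were higher under TMM, median-of-ratios factors, a pseudocount of 2 CPM or FPKM; 2 were lower under median-of-ratios factors, a pseudocount of 0.1 CPM or FPKM, and 0 with a minimum of 200 counts. Lnpk lies at the threshold and the lower gene was under 200 counts. For homeobox genes outside the clusters, 3 were higher with a minimum of 10 counts, and 1 was lower with a minimum of 200 counts or a pseudocount of 2 CPM. These last settings on context lists, and the homeobox list, were chosen after seeing the data. No paired analysis was possible because each group has 1 library. Depth limits all HOX ratios, which rest on 18 and 17 counts in the libraries labelled KO and WT.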
